A study of Mus musculus with 2 samples.

Results

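The interferon-stimulated genes described here are 32 named genes, chosen by symbol from the table of 22156 genes measured by RNA sequencing in primary mouse chondrocytes, the cells of cartilage. All 32 were found, and 27 of them reached 10 counts over both libraries and were tested, among 12431 genes tested in all. There was 1 control library and 1 *Myl3*-KO library. In *Myl3*-KO mice (*Col2a1*-Cre: *Myl3* fl/fl), Cre driven by the *Col2a1* promoter deletes floxed *Myl3*, which encodes a myosin light chain, in cells that use that promoter. The controls are labelled WT, while the study's methods describe floxed littermates without Cre. The chondrocytes of both genotypes came from newborn mice, from rib cartilage by the labels, and were grown without treatment as monolayers in DMEM/F12 containing 10% serum. How many mice gave each library is not stated in the sources used here. The column of the table headed NC was read as the control because the other is headed KO.

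The expected counts came to 17612434.91 for control chondrocytes and 13477976.98 for *Myl3*-KO. Values are given as counts, as CPM (counts scaled to a library total of 1000000) or, between genes, as FPKM (reads scaled by gene length and library). *Myl3* had 0 counts in both libraries, so its deletion could not be checked. Of 14 chondrocyte markers found in the table, 5 were at 0 in both libraries (*Acan*, *Matn1*, *Matn3*, *Hapln1* and *Cnmd*) and *Col2a1* had 30 control and 27 *Myl3*-KO counts, whereas *Col1a2*, a fibroblast marker, had 211652 and 189213. Of the 14 chondrocyte markers, 4 reached the counts for a test. Among these were *Sox9* (866 and 480 counts) and *Col11a1* (121 and 99 counts). The fibroblast marker *Thy1* was at 0 in both libraries. Many of the defining markers of chondrocytes thus had few or no reads, but not all. In such bulk libraries, fewer cells of a kind and less RNA per cell cannot be told apart.

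Interferons are secreted proteins that warn cells of infection. Type I interferons signal through the receptor *Ifnar1*/*Ifnar2* and the kinases JAK1 and TYK2 to a complex of STAT proteins with IRF9, which binds the interferon-stimulated response element (ISRE) of its target genes. Interferon gamma acts through its own receptor and a STAT dimer that binds GAS elements. The induced genes encode sensors of foreign RNA, factors that block viruses, GTPases that attack vacuoles of intracellular microbes, and the signaling proteins themselves. Cells of connective tissue keep part of this program at a low level without infection.

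The ISRE and GAS letters were searched in the promoters, since they can be read independently of the measured levels. The members were named as genes that interferon induces, so an excess of these letters among them is no separate finding. RefSeq promoters on GRCm38.p6, from 250 bases before to 50 after a start site, were found for 24 of the 32 members. The letters GAAA-NN-GAAA (N being any base), an ISRE core, read on either strand (TTTC-NN-TTTC on the other), were present in 14 of these 24 members (58.3%), against 1079 of 27025 genes with a promoter (3.99%). The GAS letters TTC-NNN-GAA were present in 7 members (29.2%) and in 9.55% of all genes. The 8 stretches below lie before the gene in both RefSeq and GENCODE M21. They are shown because they belong to members whose levels differ widely, from *Stat2* to *Rsad2*, with matches in capitals (overlapping matches run together) and 20 bases on each side, 5′ to 3′ on the strand of the gene.
*Stat2* (chr10:128270256-128270305, plus strand): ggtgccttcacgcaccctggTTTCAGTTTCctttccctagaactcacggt
*Ifit1* (chr19:34640765-34640833, plus strand): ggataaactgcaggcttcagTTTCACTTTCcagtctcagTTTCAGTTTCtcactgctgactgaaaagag
*Ifit3* (chr19:34583353-34583436, plus strand): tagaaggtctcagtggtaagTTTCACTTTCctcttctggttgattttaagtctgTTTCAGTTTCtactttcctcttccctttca
*Gbp7* (chr3:142530263-142530312, plus strand): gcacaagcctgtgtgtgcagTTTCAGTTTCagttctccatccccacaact
*Igtp* (chr11:58199502-58199551, plus strand): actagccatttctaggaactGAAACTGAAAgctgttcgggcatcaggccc
*Bst2* (chr8:71537567-71537622, minus strand): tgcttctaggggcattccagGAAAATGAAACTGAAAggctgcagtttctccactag
*Isg15* (chr4:156200855-156200916, minus strand): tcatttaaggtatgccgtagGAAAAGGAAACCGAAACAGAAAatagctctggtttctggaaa
*Rsad2* (chr12:26456543-26456592, minus strand): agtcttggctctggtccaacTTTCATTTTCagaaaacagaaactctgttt
*Isg15* carried 3 overlapping matches, *Bst2* carried 2 overlapping ones, and *Ifit1* and *Ifit3* carried a separated pair each. A match is a run of letters and not a measured binding site.

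Most of the members had a somewhat higher level in *Myl3*-KO than in control chondrocytes. Of the 27 tested, 24 (88.9%) had a log2 ratio of *Myl3*-KO over control above 0, against 52.7% of all genes tested, and 3 (*Dhx58*, *Bst2* and *Ifi44*) had one below 0. The median log2 ratio of the members was 0.43, beside 0.02 over all genes tested. Summed over all 32 members, 8158.88 control counts (463 CPM) stood against 7584.05 *Myl3*-KO counts (563 CPM). The log2 ratio of the sums was 0.28 (95% interval 0.24 to 0.33). This interval covers counting error only, not variation between mice or cultures, and the most counted members weigh most in the sum. The differences were modest in size, and 0 members reached a log2 ratio of 2.

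A gene was taken as different beyond counting error when a two-sided exact binomial test of its counts gave an adjusted p (Benjamini-Hochberg over all genes tested) under 0.05, and as called when its log2 ratio was also at least 1 in size. By this test 11 of the 27 members (40.7%) were higher in *Myl3*-KO beyond counting error, against 18.6% of all genes tested (2307). These were *Stat2*, *Ifih1*, *Ddx58*, *Ifit3*, *Oasl2*, *Gbp2*, *Gbp3*, *Irgm1*, *Xaf1*, *Parp9* and *Parp14*. No member was lower beyond counting error (0 of 27), against 16.8% of all genes (2090). Of the 11, *Oasl2* alone was called, against 1.15% of all genes called higher (143), and 0 members were called lower, against 0.394% (49). The test compares the reads of these 2 libraries and not the genotypes, as 1 library per genotype leaves no replicate check. With a coefficient of variation between replicates preset to 0.1, 0.2 or 0.4 in edgeR's exact test, 0 of the 11 stayed under an adjusted p of 0.05, the nearest being *Parp14* at an adjusted p of 0.0514.

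The shift was present among well-counted members. All 13 members with at least 300 counts over both libraries had a ratio above 0, with a median of 0.36, while the 9176 genes of that class had a median of -0.00. In this class 8 members were higher beyond counting error, against 21.8% of its genes. The 6 members with 100 to 300 counts had a median of 0.30 and the 8 with fewer a median of 0.65. Genes of these lower classes tended upwards in general, with medians of 0.10 and 0.15, so that low-count members stand on a raised background.

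**Figure D1:**
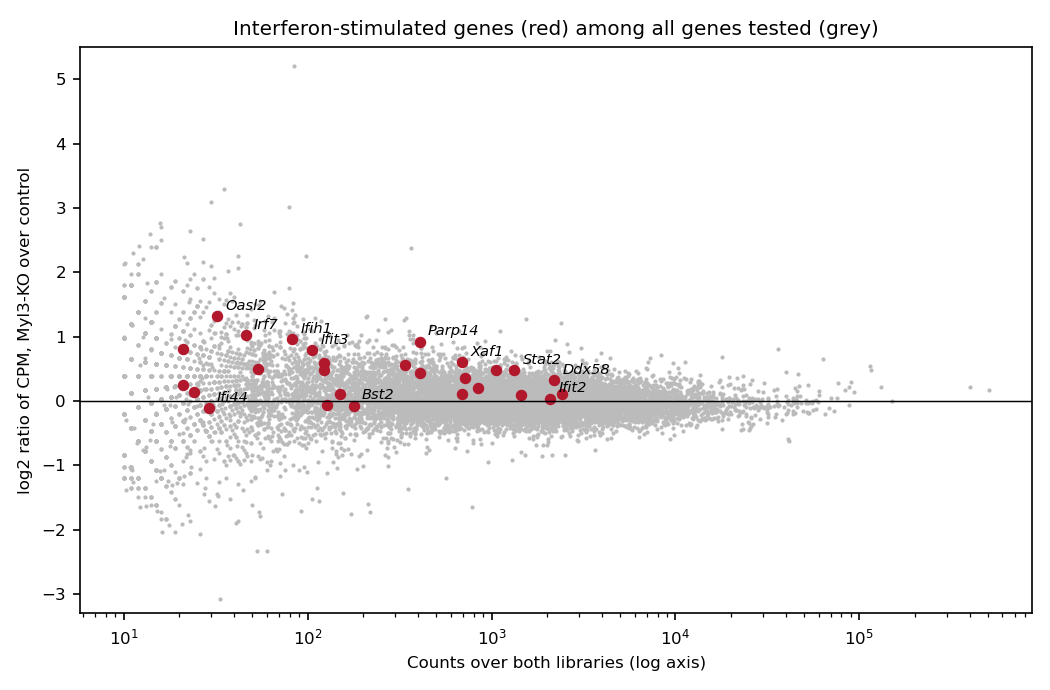
Each point is a gene tested, with its counts over both libraries on a log axis and its log2 ratio of CPM (*Myl3*-KO over control) on the vertical axis. The 27 members (red, some named) lie mostly above 0, and all 13 with at least 300 counts do.

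Markers of immune cells had few reads. Of 17 immune markers (18 rows of the table), 11 rows were at 0 counts in both libraries (*Adgre1*, *Tyrobp*, *Fcer1g*, *C1qa*, *C1qb*, *C1qc*, *Itgam* under each of 2 identifiers, *Cd52*, *Cd3e* and *Siglech*). The list summed to 5.34 control and 4.90 *Myl3*-KO CPM. Of its 4 genes tested, 0 differed beyond counting error, against 18.6% of all genes higher and 16.8% lower. Its most counted gene, *Cd14*, had 50 control and 30 *Myl3*-KO counts. The 6 endothelial markers summed to 0.397 and 0.890 CPM, with *Cdh5*, *Emcn* and *Cldn5* at 0. Among fibroblast markers *Thy1* was at 0, while *Dcn* (631 and 155 counts) and *Lum* (272 and 81 counts) were called lower in *Myl3*-KO with log2 ratios of -1.64 and -1.36. The 6 tested fibroblast markers were split, 3 higher and 3 lower beyond counting error, against 18.6% and 16.8% of all genes. Their median was 0.04, and *Col1a2* (0.22), *Col1a1* (0.15) and, named after its value was seen, *Pdgfra* (120 and 140 counts, 0.61) were the higher ones. *Sox9*, a chondrocyte regulator, had 866 and 480 counts (log2 ratio -0.47). The part of these matrix and identity genes in the member ratios was not tested.

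Per length and by the mean of both libraries, the members spanned a wide range of levels. *Irf1* stood highest with 21.46 control and 22.76 *Myl3*-KO FPKM, above 67.5% of the genes tested. It was followed by *Ddx58* (16.33 and 20.47 FPKM), *Ifit2* (18.19 and 18.41 FPKM) and *Ifi35* (15.72 and 16.89 FPKM), whose order differed between the libraries. *Xaf1* had 12.46 and 18.47 FPKM, and in *Myl3*-KO it stood above *Ifit2* and *Ifi35*. Near the lower end stood *Oasl2*, *Ifi44*, *Mx2* and *Ifit1*, each under 1 FPKM in both libraries, and *Isg15*, one of the genes most used to detect an interferon response, had 0.08 control and 0.49 *Myl3*-KO FPKM.

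**Figure D2:**
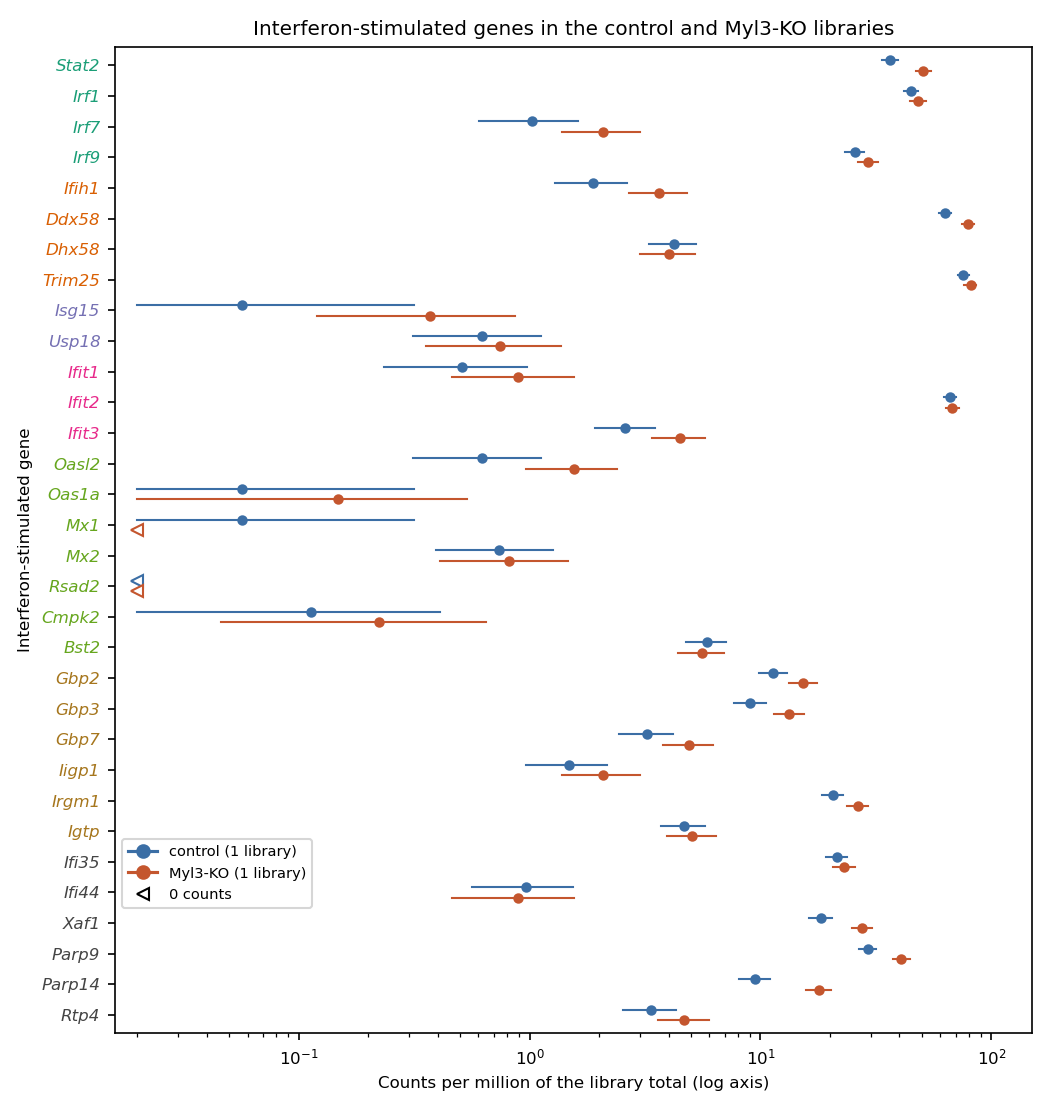
CPM of each of the 32 members on a log axis in the control (blue) and *Myl3*-KO (red) library, 1 library each, with exact 95% Poisson intervals that cover counting error only and are cut off at the left edge. Name colours mark roles, open triangles mark 0 counts, and levels are not scaled by gene length, so genes are compared only between libraries.

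Among the transcription factors of the pathway, *Stat2* (ENSMUSG00000040033, chr10:128270559-128292849), the STAT specific to type I and III interferon signaling, had 643 control and 684 *Myl3*-KO counts (36.5 and 50.7 CPM). The log2 ratio of *Stat2* was 0.48 (95% interval 0.32 to 0.63, exact adjusted p = 2.91e-08), and 2.76% of genes with at least 300 counts had a ratio as high or higher. The ratio of its partner was smaller, the intervals overlap, and the difference was not tested. *Irf9*, the DNA-binding subunit of the same complex, had 451 and 395 counts, a log2 ratio of 0.19 (-0.00 to 0.39, exact adjusted p = 0.120). *Irf1*, an early factor of the interferon gamma response, had 792 and 648 counts and a log2 ratio of 0.10 (-0.06 to 0.25, exact adjusted p = 0.356). *Irf7*, which drives transcription of type I interferon genes, had only 18 and 28 counts, and its ratio of 1.02 (0.12 to 1.96) did not pass the test (exact adjusted p = 0.0656). In all, 4 of 4 regulators had ratios above 0 and 1 passed, against 18.6% of all genes. *Irf7* and *Irf9* overlap exons of *Phrf1* and *Rnf31*, which held 1325 and 546 control counts, and how the authors assigned shared reads is not given in the sources used here.

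Of the 4 members that sense viral RNA or act on a sensor, 2 were higher beyond counting error, against 18.6% of all genes. *Ddx58* (ENSMUSG00000040296, chr4:40203773-40239828), which encodes the sensor RIG-I, had 1114 control and 1069 *Myl3*-KO counts (63.3 and 79.3 CPM). Its log2 ratio of 0.33 (0.20 to 0.45, exact adjusted p = 1.43e-06) was small but narrowly bounded by its depth. *Ifih1*, which encodes the sensor MDA5, had 33 and 49 counts and a log2 ratio of 0.96 (0.29 to 1.64, exact adjusted p = 0.0131). The third helicase of the family, *Dhx58* (LGP2), had 74 and 54 counts, with a log2 ratio of -0.07 (-0.60 to 0.46, exact adjusted p = 0.932). The intervals of *Ifih1* and *Dhx58* overlap, and the difference between their ratios was not tested. *Trim25*, a ubiquitin ligase of the RIG-I pathway and the most counted member, had 1333 and 1095 counts and a log2 ratio of 0.10 (-0.01 to 0.22, exact adjusted p = 0.178).

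The ISG15 system had few reads. *Isg15*, a ubiquitin-like modifier, had 1 control and 5 *Myl3*-KO counts and was not tested. Without the floor of 3 counts its CPM ratio, over 1 control read, was 6.53-fold with a counting interval from 0.731- to 309-fold, so no difference was detectable at this depth. *Usp18*, the protease that removes ISG15 and also restrains the type I receptor, had 11 and 10 counts (log2 ratio 0.25, interval -1.14 to 1.62, exact adjusted p = 0.911).

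The IFIT genes, a cluster on chromosome 19 whose products bind foreign RNA, differed widely in level. *Ifit2* had 1165 control and 914 *Myl3*-KO counts, with a log2 ratio of 0.04 (-0.09 to 0.16, exact adjusted p = 0.727). *Ifit3* (ENSMUSG00000074896, chr19:34583531-34588731) had 45.53 and 60.47 counts, a log2 ratio of 0.80 (0.19 to 1.36, exact adjusted p = 0.0254). *Ifit1* had 9 and 12 counts and a log2 ratio of 0.80 (-0.57 to 2.23, exact adjusted p = 0.427). The abundant member of the cluster was therefore flat within narrow bounds, while the higher ratios belonged to scarce ones. The interval of *Ifit1* includes the ratio of *Ifit2*. *Ifit1* shared 9.16% of its 31-base words with *Ifit1bl2* (27 and 20 counts, log2 ratio -0.05). It shared 5.23% with *Ifit1bl1* (20 and 24 counts, 0.65), and neither of these scarce genes passed the test. *Ifit3* shared 61.8% of its 31-base words with *Ifit3b* (16.47 and 25.53 counts), so the split of reads between them is uncertain, and their summed counts of 62 and 86 gave a log2 ratio of 0.86 (0.37 to 1.35).

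Among the 7 antiviral effectors, 3 reached the counts for a test. *Oasl2* (chr5:114896936-114912234), a member of the oligoadenylate synthetase-like family, had 11 control and 21 *Myl3*-KO counts, and its log2 ratio of 1.32 (0.20 to 2.52, exact adjusted p = 0.0371) made it the called member. The call rests on these few reads and was lost with TMM factors (exact adjusted p = 0.0531) or DESeq2 size factors (exact adjusted p = 0.0532). *Bst2*, or tetherin, which holds budding virions at the cell surface, had 103 and 75 counts and a log2 ratio of -0.07 (-0.52 to 0.37, exact adjusted p = 0.870). *Mx2*, a dynamin-like GTPase that GENCODE M21 marks as a polymorphic pseudogene, had 13 and 11 counts (log2 ratio 0.14, interval -1.16 to 1.42, exact adjusted p = 0.919). The remaining effectors were at or under the floor of 3 counts (0.170 control CPM, 0.223 *Myl3*-KO CPM) in both libraries, and no ratio is given for them. *Oas1a*, an oligoadenylate synthetase, had 1 and 2 counts, and shared 68.7% of its words with *Oas1g*, at 0. *Mx1*, the other Mx gene, had 1 and 0 counts, and whether these mice carry a working copy was not examined. *Rsad2* (viperin) had 0 and 0 counts, which allows up to 3 in each library, and its neighbour *Cmpk2*, a nucleotide kinase, had 2 and 3.

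All 6 GTPase members had ratios above 0, as did 52.7% of all genes tested, and 3 of them were higher beyond counting error, as were 18.6% of all genes. These proteins bind membranes of vacuoles that hold microbes and are induced mainly by interferon gamma. *Gbp3* (ENSMUSG00000028268, chr3:142560026-142573209) had 159 control and 179 *Myl3*-KO counts, a log2 ratio of 0.56 (0.24 to 0.87, exact adjusted p = 0.00213). Of the genes with at least 300 counts, 1.65% had a ratio as high or higher. *Gbp3* stands near the lower edge of this class, which also holds genes with far more counts. *Gbp2* had 200 and 206 counts and a log2 ratio of 0.43 (0.14 to 0.72, exact adjusted p = 0.0117). *Gbp7*, from the same cluster, had 57 and 66 counts with a log2 ratio of 0.60 (0.06 to 1.13, exact adjusted p = 0.0619). The 3 ratios lie inside each other's intervals. *Irgm1*, a regulator of the immunity-related GTPases, had 362 and 355 counts and a log2 ratio of 0.36 (0.14 to 0.57, exact adjusted p = 0.00454). *Iigp1*, an effector of the same family, had 26 and 28 counts (log2 ratio 0.49, interval -0.33 to 1.32, exact adjusted p = 0.364). *Igtp* (Irgm3) had 82 and 68 counts (log2 ratio 0.12, interval -0.37 to 0.60, exact adjusted p = 0.762). *Igtp* overlaps *Irgm2* on the same strand and shared 15.9% of its words, and both together had 110 and 111 counts, a log2 ratio of 0.40 (0.01 to 0.79). Each of these values lies inside the interval of the other.

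The group of other induced genes held 3 of the 4 members with the lowest adjusted p of the exact test, the fourth being *Stat2*. *Parp14* (ENSMUSG00000034422, chr16:35832874-35871544), an ADP-ribosyltransferase, had 166 control and 241 *Myl3*-KO counts (9.43 and 17.9 CPM). Its log2 ratio was 0.92 (0.63 to 1.22, exact adjusted p = 2.52e-09), and 0.185% of the genes with at least 300 counts had one as high or higher. *Parp9* (ENSMUSG00000022906, chr16:35938470-35972605), which lies close by, had 512.35 and 548.58 counts and a log2 ratio of 0.48 (0.31 to 0.66, exact adjusted p = 5.39e-07). It overlaps *Dtx3l*, its partner in a ubiquitin ligase complex, on the opposite strand, and the sum of the pair, 891 and 955 counts, had nearly the same ratio, 0.49 (0.35 to 0.62). *Xaf1* (chr11:72301629-72313733), a proapoptotic antagonist of XIAP, had 321 and 372 counts, a log2 ratio of 0.60 (0.38 to 0.82, exact adjusted p = 6.68e-07). All 3 passed on counting error alone, and at a preset coefficient of variation of 0.1 in edgeR's exact test their adjusted p were 0.0514, 0.648 and 0.419 for *Parp14*, *Parp9* and *Xaf1*. *Rtp4*, a chaperone of membrane receptors, had 59 and 63 counts and a log2 ratio of 0.48 (-0.05 to 1.02, exact adjusted p = 0.148). *Ifi35*, a leucine zipper protein, had 377 and 310 counts with a log2 ratio of 0.10 (-0.12 to 0.32, exact adjusted p = 0.522), and *Ifi44* had 17 and 12 counts with one of -0.12 (-1.31 to 1.04, exact adjusted p = 0.929).

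**Figure D3:**
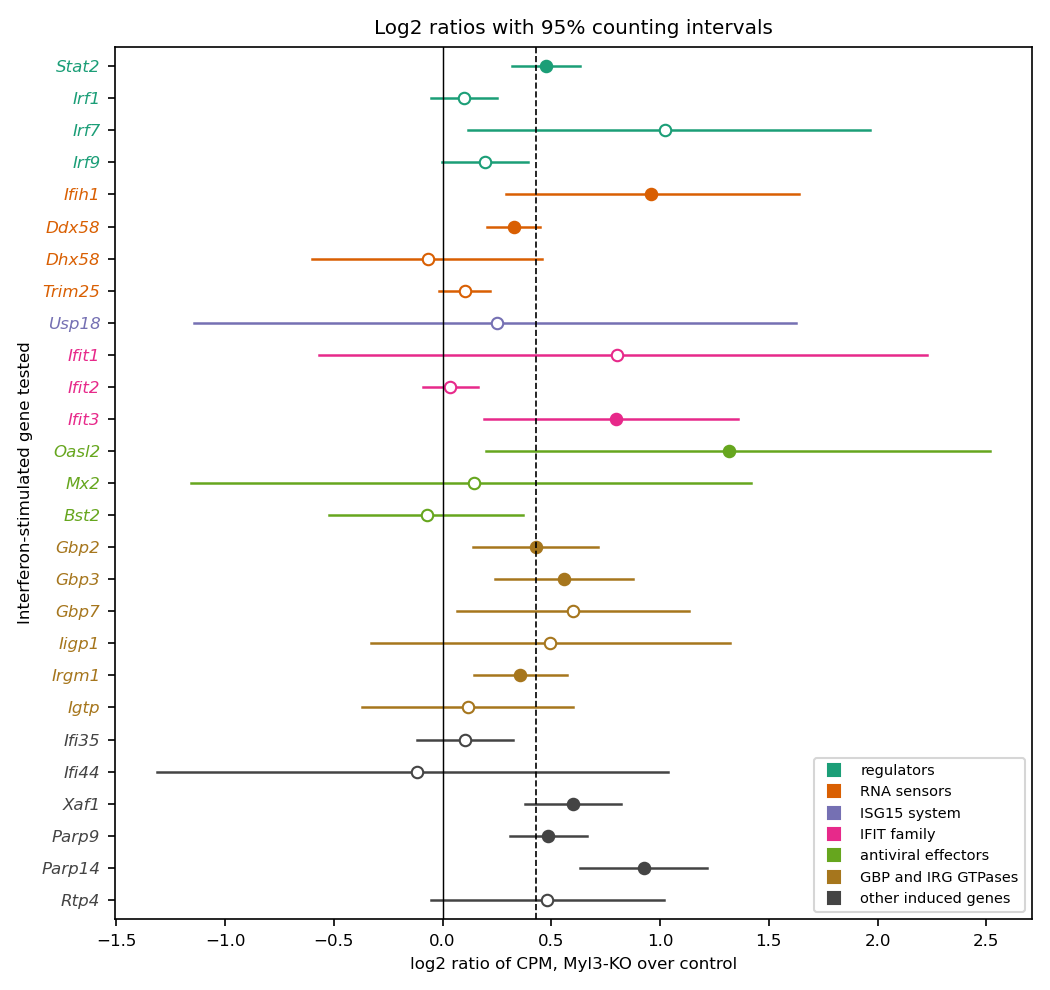
Log2 ratios of CPM (*Myl3*-KO over control) of the 27 members tested, with 95% Clopper-Pearson intervals for counting error, coloured by role. Filled points (11) were higher beyond counting error, the dashed line marks the members' median of 0.43, and 3 points lie left of 0.

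The pathway around these genes was examined in other lists. Of 11 interferon genes found in the table, 9 were at 0 counts in both libraries, *Ifnb1* and *Ifng* among them, and *Ifne* (2 and 1 counts) and *Ifnk* (1 and 0 counts) stayed at or under the floor. All 9 receptor and JAK kinase genes were tested, with a median log2 ratio of 0.20, and 3 were higher beyond counting error, against 18.6% of all genes, a difference of few genes in so short a list. *Ifnar1*, a chain of the type I receptor, had 1624 and 1510 counts (log2 ratio 0.28, exact adjusted p = 6.50e-07), while *Jak1* (3585 and 2828 counts, 0.04) and *Ifngr1* (1096 and 828 counts, -0.02) did not pass. Named after their values were seen, the other 2 were *Tyk2* (log2 ratio 0.37) and *Ifngr2* (0.20).

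Signal transducers and inhibitors had a median close to that of all genes. Of 9 tested among 10 STATs and negative regulators, the median log2 ratio was 0.05, with 2 higher and 1 lower beyond counting error, against 18.6% and 16.8% of all genes. These were *Stat3* (2235 and 1879 counts, log2 ratio 0.14) and *Pias1* (1443 and 997 counts, -0.15), and, named after its value was seen, *Socs1*, an inhibitor of JAK kinases that interferon induces (51 and 64 counts, 0.71, exact adjusted p = 0.0267). *Ptpn11*, the most counted gene of the list, had a log2 ratio of -0.03. Of 17 nucleic acid sensing genes tested upstream of interferon, the median was 0.07, with 1 higher and 1 lower beyond counting error, against 18.6% and 16.8% of all genes. These were *Samhd1* (0.12) and, named after its value was seen, *Rnaseh2c* (-0.24). *Tbk1* (1647 and 1230 counts, -0.04), *Rnaseh2a* (1231 and 850.01 counts, -0.15) and, also named after its value was seen, *Rnaseh2b* (-0.28) did not pass. *Tlr7* and *Tlr9* were at 0.

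A longer list of other interferon-induced genes also had mostly ratios above 0. Of 72 found, 44 were tested, and 36 of these (81.8%, against 52.7% of all genes tested) had a ratio above 0, with a median of 0.25. In this list 12 were higher and 1 was lower beyond counting error, against 18.6% and 16.8% of all genes, and 4 were called higher, against 1.15%. Among the called genes were *Uba7*, the activating enzyme for ISG15 (34 and 53 counts, log2 ratio 1.03, exact adjusted p = 0.00478), *Irgm2* (28 and 43 counts, just past the limit of 1) and *Gbp9* (6 and 16 counts, 1.80). Against this, *Ifitm2* (2703 and 2026 counts) and *Pnpt1* (1959 and 1440 counts), the most counted genes of the list, had log2 ratios of -0.03 and -0.06, and *Nampt* (1707 and 930 counts), an enzyme of NAD synthesis, was lower at -0.49 (exact adjusted p = 1.03e-15). Of the list, 13 genes were at 0 in both libraries, among them *Oas2*, *Ifitm1* and *Cxcl9*. The list is not fully independent of the members, and both were chosen with earlier results of these data known. Exons of *Dtx3l* and *Irgm2* overlap those of *Parp9* and *Igtp*. *Ifit3b* and *Gbp2b* shared 61.8% and 4.61% of the sequence words of *Ifit3* and *Gbp2*. Of these list genes, *Dtx3l*, *Irgm2* and *Gbp2b* were higher beyond counting error, and *Ifit3b* did not pass.

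**Figure D4:**
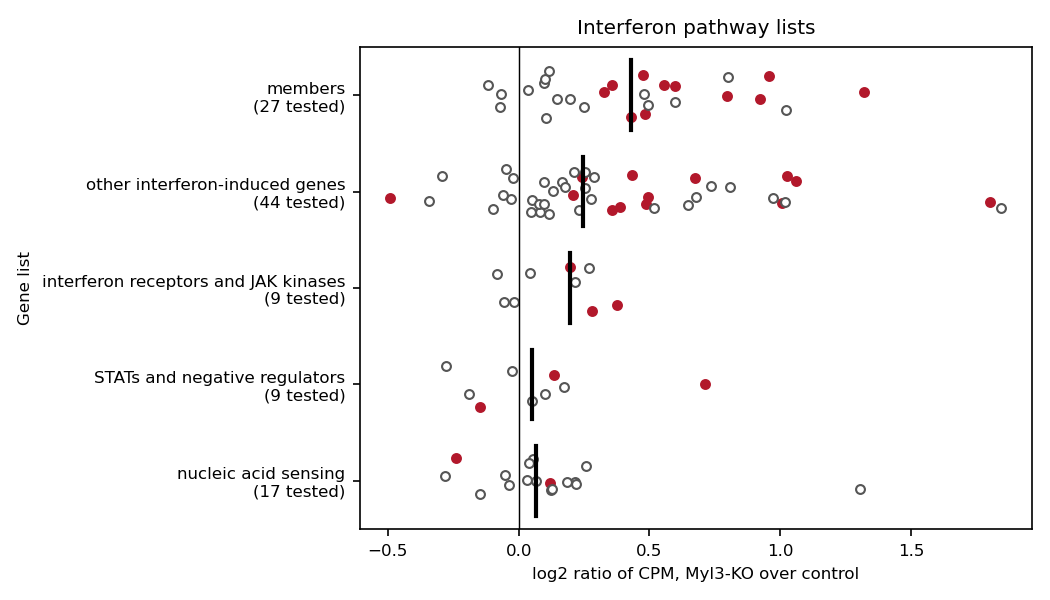
Log2 ratios of CPM (*Myl3*-KO over control) of the genes tested in the member list and 4 other lists of the pathway, 1 point per gene, with small vertical offsets for legibility. Red points differed beyond counting error in either direction, and black bars mark medians, from 0.43 for the members to 0.05 for STATs and negative regulators.

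The promoter letters and the ratios were then set side by side. The 11 tested members with ISRE letters had a median log2 ratio of 0.48, and 7 of them were higher beyond counting error. The 9 without these letters had a median of 0.10, with *Oasl2* and *Xaf1* higher beyond counting error, and the 7 whose promoter was not found had a median of 0.48. Among tested genes that are no members, 322 with ISRE letters had a median of 0.02 and 9092 without them a median of 0.01, and 18.6% and 19.0% of them were higher beyond counting error. Outside the members the medians with and without the letters were thus nearly alike. In the 21 such genes with at least 2 matches the median was 0.22, and the log2 ratio of their summed counts was 0.04. Of them 6 (28.6%) were higher and 3 lower beyond counting error, against 18.6% and 16.8% of all genes. Other interferon-induced genes were not taken out of these sets, and the highest ratio among the 21 (1.02) is that of *Ifit3b*. Among the members shown above, *Stat2* and *Ifit3* were higher, *Bst2* had a ratio of -0.07 with 2 matches, and *Isg15* and *Rsad2* stayed near or at 0 counts. These figures are descriptions of 2 libraries, and no test was made across genes.

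**Figure D5:**
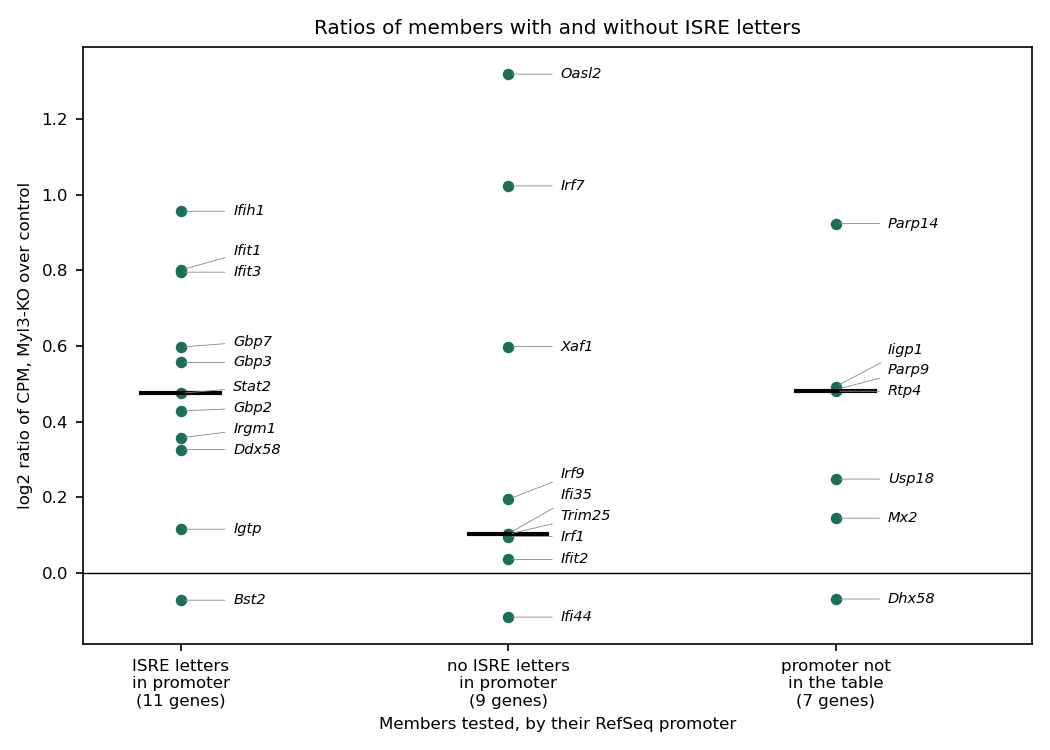
Log2 ratios of CPM (*Myl3*-KO over control) of the 27 members tested, split by whether ISRE letters are present in their RefSeq promoter, with black bars at the medians of 0.48, 0.10 and 0.48. The groups overlap, with *Bst2* low among the members with ISRE letters and *Oasl2* highest among those without.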

How the data were processed

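RNA of primary chondrocytes, 1 control and 1 *Myl3*-KO library, was sequenced on an Illumina instrument. The labels name a SMARTER library kit, and the study's methods oligo beads and random primers. The authors deposited expected counts (estimated reads per gene, not normalized), and the authors also deposited FPKM values. The submitters' processing notes name GRCm38 and mm10. The aligner, the counting tool and the use of strand are not given in the sources used here.

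CPM were computed from library totals. Rounded counts of the 2 libraries were set against the ratio of their totals by an exact binomial test (two-sided). It covered genes that reached 10 counts in all, with Benjamini-Hochberg adjustment over all 12431. Log2 ratios used unrounded counts, with counts under 3 raised to 3, and their 95% Clopper-Pearson intervals, like the Poisson intervals of CPM, cover counting error only. With 1 library per genotype, quasi-likelihood and DESeq2 tests have no residual degrees of freedom. The test's script was run on simulated counts, whose values are not quoted. Alternatives were TMM and DESeq2 size factors, edgeR's exact test with preset variation, other filters and limits, 1 added count, and FPKM ratios.

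The genes named are the 32 members and, of the other lists, called genes, the 3 most counted genes and markers at 0, plus genes that overlap or share 31-base words with a member. Others are said to be named after their values were seen, except that the text names examples of ligands and induced genes at 0. The members and lists were chosen with earlier results of these data known. *Ifi30*, *Ifi203*, *Samd9l* and *Snorc* were not found by symbol and are not analysed here, and the result of 1 called gene is not reported here. Positions come from GENCODE M21 on GRCm38 and promoters from RefSeq. Promoters of *Dhx58*, *Usp18*, *Mx1*, *Mx2*, *Iigp1*, *Parp9*, *Parp14* and *Rtp4* were not used here. Tools were Python 3.11.15, numpy 2.4.6, pandas 2.3.3, scipy 1.17.1, statsmodels 0.14.6 and matplotlib 3.10.9, beside DESeq2 1.42.0 and edgeR 4.0.16 under R 4.3.3.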

Additional observations from a re-analysis of the deposited data

How the results depend on the processing

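Each genotype had 1 library, so no replicate could be left out, and depth limits every member under about 100 counts. No paired analysis was possible because each genotype has 1 library and no replicate numbers. Of the members, 24 of 27 had ratios above 0 under every scaling, and the median log2 ratio of 0.43 became 0.40 with TMM or DESeq2 size factors, 0.39 with at least 10 counts in each library and 0.45 without a filter (28 members with a ratio). The 11 members higher beyond counting error (40.7%, against 18.6% of all genes) became 10 with either scaling, *Oasl2* being lost. These 10 (37.0%) stood against 15.6% of all genes with TMM and 15.9% with DESeq2 size factors. The number became 0, 0 and 0 with edgeR's exact test at a preset coefficient of variation of 0.1, 0.2 and 0.4, where 41, 3 and 1 of all genes were higher. The 1 member called higher became 0 with TMM, 0 with DESeq2 size factors and 0 with each of these 3 variations. It became 0 when a log2 ratio of 2 was required, where 31 of all 12431 genes were called higher. When 0.5 was enough, 6 of the 27 members were called higher, against 501 of all 12431 genes. No member ratio changed sign under these alternatives.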

Other observations

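The genes around 3 groups of members on the chromosome, within 200 kb, were compared with them. They were chosen after their values were seen. On chromosome 16, *Parp14*, *Parp9* and *Dtx3l*, with log2 ratios of 0.92, 0.48 and 0.49, lie beside genes that were lower in *Myl3*-KO. *Kpna1*, an importin gene, begins within a few kilobases of *Parp9* and had 1581 and 957 counts, a log2 ratio of -0.34 (-0.46 to -0.22, exact binomial test, adjusted p = 1.11e-07). *Fam162a* (1756 and 755 counts) and *Ccdc58* (621 and 339 counts) followed with -0.83 (exact adjusted p = 2.09e-40) and -0.49 (exact adjusted p = 4.17e-06). The 5 neighbours tested had a median of -0.34, and on the other side *Hspbap1* (182 and 141 counts, 0.02) and *Dirc2* (647 and 555 counts, 0.16) did not pass.

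On chromosome 3 the 4 tested genes of the Gbp cluster, *Gbp7*, *Gbp3*, *Gbp2b* and *Gbp2*, had log2 ratios from 0.43 to 0.67, *Gbp2b* with 123 and 150 counts being the highest (0.67, exact adjusted p = 0.000821). Their 4 neighbours had a median of -0.08, with *Pkn2* lower (1981 and 1346 counts, -0.17, exact adjusted p = 0.00358) and *Pdlim5*, *Kyat3* and *Gtf2b* not past the test. On chromosome 19 the neighbours of the IFIT genes, *Lipa* (1965 and 1646 counts) and *Pank1* (429 and 360 counts), each had a log2 ratio of 0.13, *Lipa* being higher beyond counting error (exact adjusted p = 0.0228). The members there had ratios of 0.04 (*Ifit2*), 0.80 (*Ifit3*) and 0.80 (*Ifit1*), and the differences between these genes were not tested.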
